A study of Mus musculus with 378 samples.

Results

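Imprinted genes are transcribed mainly or only from the copy inherited from one parent. They lie in clusters, and within a cluster a differentially methylated imprinting control region sets which parental copy of each gene is read. Many encode regulators of growth, hormone secretion or metabolism, and others are long non-coding RNAs that silence neighbouring genes or carry small RNAs. In pancreatic islets several of them are expressed, among them the Meg3 and Peg3 loci and the neuronatin gene Nnat. The rows described here were those whose symbol equals one of 40 listed imprinted genes. The count table holds 38 of them among 22180 genes, and levels of H19 and Snurf are not analysed here. The list names genes by their reported imprinting in mouse, and for some of them (Gnas, Ube3a, Grb10, Trappc9, Copg2, Blcap, H13, Inpp5f, Rasgrf1, Zim1 and Cd81) it is known to be limited to some tissues, stages or transcripts. The deposited values are totals over both parental copies, so the parental origin of the RNA was not measured.

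The libraries are poly(A)-selected RNA-seq of pancreatic islets from Diversity Outbred mice, females and males. Diversity Outbred mice are an outbred stock descended from several inbred founder strains, so each animal carries its own mix of founder genomes. All groups had the same diet, high in fat and sugar, with 45% fat, and the labels name no engineered allele in either sex. The labels give the tissue, the diet, the letter for sex and a mouse number, and no age or batch. Mouse numbers were divided into 4 number bands of 100 numbers, starting at 21, which held 46, 46, 49 and 47 females and 45, 48, 50 and 47 males; the labels do not say what a band stands for. Total counts per library ran from 15.1 M to 68.8 M, with medians of 34.8 M (females) and 34.9 M (males), and were lowest in number band 4 (median 23.99 M). Of the female libraries, 2 had an Xist level that went against their label, and the counts for sex are also given without them. The islet label was checked against beta cell markers: all 16 were measured, and their summed level had a median of 137040 CPM (counts scaled to the library size) in females and 164820 CPM in males. An islet preparation holds several cell types, and in such bulk RNA fewer cells of a type and less RNA per cell cannot be told apart.

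Of the 38 measured genes, 36 passed the filter on low counts. The others, the placental growth regulator gene Phlda2 and the MAGE family gene Magel2, were close to absent in most libraries. Phlda2 had a median of 0.0475 CPM in females, against 0.0321 CPM in males, and Magel2 had a median of 0.0302 CPM in females, against 0.024 CPM in males. In the shallowest library 3 counts, the limit taken for an observed 0, correspond to 0.198 CPM. The measured genes fell into 17 clusters, taking members on one chromosome with starts at most 3 Mb apart as one cluster, and 11 of these clusters held more than 1 of the measured genes.

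Levels spanned about 4 orders of magnitude. The most abundant transcripts came from the Dlk1 to Mirg cluster on chromosome 12 (GRCm38) and from the Peg3 cluster on chromosome 7. Meg3 (ENSMUSG00000021268, chromosome 12, 109541001 to 109571726, plus strand), a maternally expressed long non-coding RNA, had a lowest value of 783.6 CPM, a median of 2111 CPM and a highest value of 2961 CPM in females, and 1011, 1935 and 2935 CPM in males. Rian, the neighbouring maternal non-coding RNA that hosts small nucleolar RNAs, ran from 664.3 to 2265 CPM in females (median 1565 CPM) and from 658.5 to 2036 CPM in males (median 1470 CPM). Peg3 (ENSMUSG00000002265, chromosome 7, 6703892 to 6730431, minus strand), which encodes a paternally expressed zinc finger protein, ran from 751.9 to 2895 CPM in females (median 1722 CPM) and from 772.02 to 2690 CPM in males (median 1744 CPM). These 3 genes were above 99.8% of all tested genes in CPM. The ranges of the sexes overlapped almost completely for each of them.

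Corrected for the length of the merged exons, Peg3 was the highest member with a median of 130.8 CPM per kilobase over all libraries, followed by Meg3 (111.7) and Rian (83.6). The next tier comprised Inpp5f, a phosphoinositide phosphatase gene, at 43.1 CPM per kilobase, Impact, an inhibitor of the translational kinase GCN2, at 36.8, and Rasgrf1, a guanine nucleotide exchange factor gene for Ras, at 33.6. At the low end were Slc22a18, a transporter gene (0.132 CPM per kilobase), Nespas, the antisense transcript of the Gnas locus (0.163), Kcnq1ot1, the long non-coding RNA of the Kcnq1 domain (0.225), and Cdkn1c, the gene of the cell cycle inhibitor p57 (0.234). Igf2, the fetal growth factor gene, was low at 1.06 CPM per kilobase, whereas its scavenger receptor gene Igf2r stood at 26.7. With the longest transcript in place of the merged exons Rian (188.4 CPM per kilobase) came above Meg3 (138.9), and Peg3 was again the highest (200.5), and neighbours in the next tier overlap in their ranges over mice.

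Within clusters the levels of neighbours differed widely. In the Dlk1 to Mirg cluster, the paternal genes were far below the maternal RNAs: Dlk1, a transmembrane protein of the Notch ligand family, had a median of 18.9 CPM in females, against 9.68 CPM in males, and Rtl1, a retrotransposon-derived protein gene, 4.48 CPM in females, against 3.82 CPM in males, while the maternal microRNA host Mirg had 107.3 CPM in females, against 95.5 CPM in males. In the Peg3 cluster, Usp29, a deubiquitinase gene, had a median of 37.7 CPM in females, against 35.98 CPM in males, and Zim1, a zinc finger gene, 69.3 CPM in females, against 53.6 CPM in males. Among the tested genes of the distal chromosome 7 cluster levels ran from Cd81, a tetraspanin gene (median 55.5 CPM in females, against 45.7 CPM in males), to Slc22a18 (0.23 CPM in females, against 0.22 CPM in males). In the Prader-Willi/Angelman region the ubiquitin ligase gene Ube3a had a median of 180.6 CPM in females, against 179.7 CPM in males, and Ndn (necdin) 27.6 CPM in females, against 28.1 CPM in males.

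**Figure D1:**
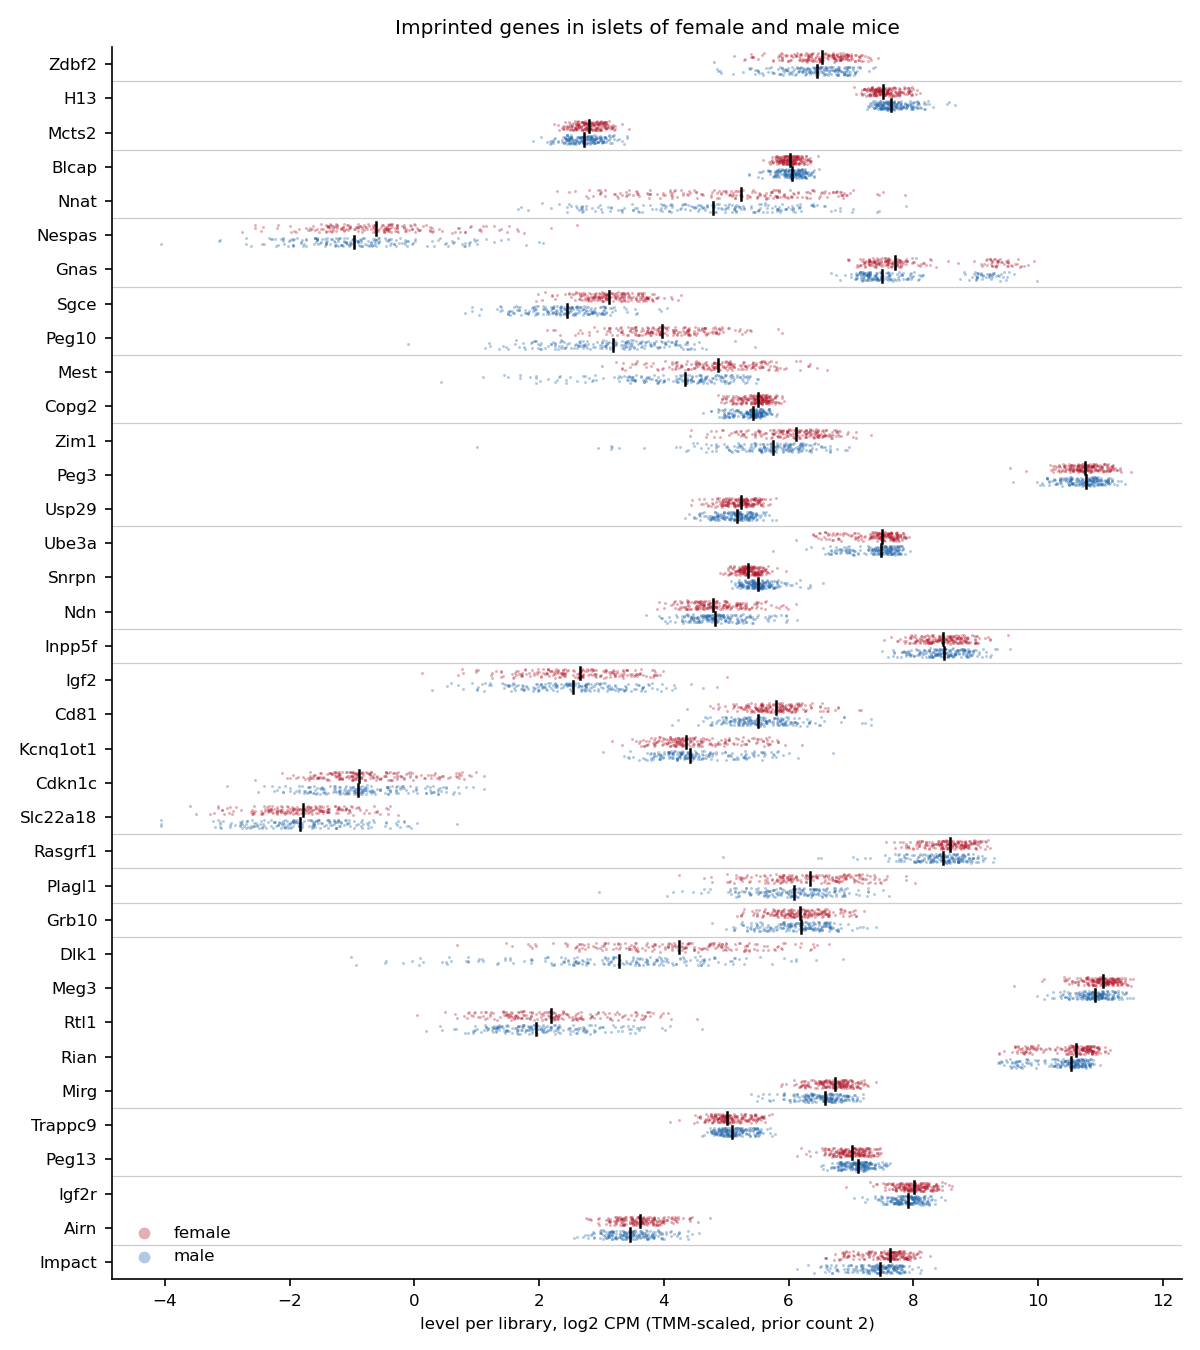
Levels of the 36 tested imprinted genes in every library, in genome order with grey lines between clusters. Each point is 1 mouse (female above, male below), black ticks are medians, and the x axis is log2 CPM. Meg3, Rian and Peg3 lie highest, Dlk1 and Nnat are the most spread out, and Gnas has a group of high libraries in both sexes.

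Gnas, which encodes the stimulatory G protein alpha subunit and other proteins from several promoters, stood apart. Its log2 CPM in number band 4 ran from 8.75 to 9.98, and no library of the other bands exceeded 8.725. Band 4 thus did not overlap the other bands, by a narrow margin. The medians were 178.9 CPM in band 1 and 180.5 CPM in band 3, with band 2 lower than both, and 618.6 CPM in band 4. Its counts were fractional in all libraries, as when reads are divided among genes or transcripts that share sequence. Bands differed in 32 of the 36 genes by edgeR's quasi-likelihood F test (adjusted p under 0.05), where 86.2% of all tested genes passed. Rtl1 (log2 1.65 for band 4 minus band 1), Nespas (1.57), Dlk1 (1.53), Kcnq1ot1 (1.28) and Cdkn1c (1.255) were also higher in band 4, and Rian (-0.83), Plagl1 (-0.79), Ube3a (-0.73) and Impact (-0.72) were lower. Mest, Igf2, Peg13 and Slc22a18 did not pass this test. Band 4 is also the band of lower depth, and the part of depth or of counting in these differences was not tested. All tests below have the band in the model or removed, unless stated. This does not remove differences between the number blocks of females and males within a band.

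Spread between mice was described by the standard deviation (SD) of log2 CPM within sex and band. Over the 33 members with a mean of at least 1 CPM the median SD was 0.32, against 0.29 over all 14355 tested genes of that level, and 10 of them lay above the 75th percentile of these genes. The most variable were Dlk1 (SD 1.22) and Nnat (SD 1.21), at percentiles 96.04 and 96.03 of the genes of this level. Nnat, an endoplasmic reticulum proteolipid that acts in insulin processing in beta cells, ran from 4.8 to 233.8 CPM in females (median 37.7 CPM) and from 3.1 to 236.3 CPM in males (median 27.7 CPM). Dlk1 ran from 1.54 to 100.03 CPM in females and from 0.437 to 117 CPM in males. Igf2 (SD 0.81), Mest (0.85), which encodes a membrane protein of the hydrolase fold family, and Peg10 (0.77), a retrotransposon-derived gene, followed. At the other end Copg2, a coatomer subunit gene that overlaps the 3' end of Mest, had an SD of 0.14 (percentile 4.99) and H13, which encodes signal peptide peptidase, had 0.17.

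The sexes were compared to see which imprinted genes differ in level between them. Of the 36 genes 22 were higher in females and 4 lower, and 10 did not pass the test; over all 18562 tested genes 21.5% were higher and 26.9% lower in females. The median log2 difference, female minus male, was 0.10 over the imprinted genes and -0.01 over all tested genes. The differences were largest for the paternally expressed genes Peg10, Dlk1, Sgce and Mest, each 1.63-fold to 1.77-fold higher in females, and were at most 1.29-fold for the others. All adjusted p-values for sex are from edgeR's quasi-likelihood test with the number band as a covariate, adjusted over all tested genes.

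Sgce (chromosome 6, 4674350 to 4747207) encodes epsilon-sarcoglycan, a component of the dystrophin-associated complex, and lies head to head with Peg10 (4747306 to 4760517). Sgce had values from 3.82 to 19.3 CPM in females (median 8.6 CPM) and from 1.7 to 16.5 CPM in males (median 5.39 CPM), with means ± SD of 9.33 ± 2.9 CPM over all females, against 5.69 ± 2.39 CPM over all males. The ranges overlapped, and the female median lay well above that of the males. The log2 difference was 0.71 ± 0.05 (SE, adjusted p = 8.07e-33). Peg10 ran from 4.3 to 59.3 CPM in females (median 15.7 CPM) and from 0.875 to 44.1 CPM in males (median 9.01 CPM), a log2 difference of 0.82 ± 0.08 (SE, adjusted p = 6.69e-21).

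Mest ran from 8.01 to 98.3 CPM in females (median 29.3 CPM) and from 1.29 to 45.7 CPM in males (median 20.2 CPM), and the 8 lowest libraries were all from males. Its log2 difference was 0.70 ± 0.08 (SE, adjusted p = 6.34e-15). Dlk1 had the same size of difference with a wider error, at log2 0.72 ± 0.12 (SE, adjusted p = 1.86e-08). In each number band alone Sgce, Peg10 and Mest were higher in females and passed the threshold in all 4 bands, whereas Dlk1 was higher in all 4 and passed in 2.

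Alpha cell and delta and PP cell markers moved with these genes between the sexes. Of the 9 alpha cell markers 8 were higher in females, with a summed level from 6385 to 72316 CPM in females (median 23220 CPM) and from 2598 to 44129 CPM in males (median 11579 CPM), and of the 9 delta and PP cell markers 8 were higher, with a summed level from 889 to 11483 CPM in females (median 3122 CPM) and from 412.7 to 6968 CPM in males (median 2251 CPM). Neither summed level was near 0 in any library, and the part of these cells in the differences was not tested by an independent cell count. Endothelial markers (12 of 13) and proliferation genes (19 of 20) were lower in females. The non-endocrine scores used as covariates were those of acinar, duct, endothelial, stellate, pericyte and fibroblast, macrophage and lymphocyte markers. Schwann cell and adipocyte scores were not among them. With these covariates 13 imprinted genes were higher in females and 4 lower, where 13.5% and 16.2% of all genes were. The log2 difference was then 0.57 for Sgce, 0.63 for Peg10, 0.50 for Mest and 0.44 for Dlk1. With the alpha, delta and PP, and beta cell scores as covariates, an alternative chosen after the data were seen, 12 imprinted genes were higher in females and 5 lower, where 11.2% and 12.96% of all genes were. In that fit the log2 difference was 0.13 for Sgce (adjusted p = 0.00436), 0.20 for Mest (adjusted p = 0.037), 0.11 for Peg10 (adjusted p = 0.253) and 0.50 for Dlk1 (adjusted p = 0.00275). Grb10, which encodes an adaptor that inhibits insulin receptor signalling, did not differ beyond error in the main comparison (log2 0.03, adjusted p = 0.593), and in that fit it fell by 0.21 in females (adjusted p = 0.00104). Ndn (log2 -0.18, adjusted p = 0.000344) and Igf2 (log2 -0.28, adjusted p = 0.0239) were also lower in females in that fit and did not pass in the main comparison.

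The remaining genes of the Dlk1 to Mirg cluster moved the same way by less. Mirg was 1.14-fold, Rtl1 1.12-fold, Rian 1.09-fold and Meg3 1.08-fold higher in females (adjusted p = 1.19e-07, 0.00989, 1.81e-08 and 0.000268), so that all 5 tested genes of this cluster, both maternally and paternally expressed, passed the test in one direction. Meg3 did not pass with either set of cell scores (log2 0.05 in both, adjusted p = 0.21 with the non-endocrine and 0.272 with the endocrine scores), and Rtl1 did not with the non-endocrine scores (log2 0.05, adjusted p = 0.552). Without the 2 libraries whose Xist level went against their label the counts over all imprinted genes were again 22 higher and 4 lower. In the Peg3 cluster Zim1 was 1.28-fold higher (log2 0.36 ± 0.06 SE, adjusted p = 7.13e-09), with values from 21.4 to 160.7 CPM in females (median 69.3 CPM) and from 1.94 to 124.9 CPM in males (median 53.6 CPM). Usp29 was 1.05-fold higher (adjusted p = 0.00844), a call lost with either set of cell scores (adjusted p = 0.161 non-endocrine and 0.937 endocrine). Peg3 itself averaged 1769 ± 346.2 CPM in females, against 1731 ± 346.6 CPM in males and did not pass (log2 0.03 ± 0.03 SE, adjusted p = 0.319).

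Among single genes, Plagl1, a zinc finger transcription factor gene, was 1.23-fold higher in females (log2 0.30, adjusted p = 1.78e-05), and Impact was higher by log2 0.14 (adjusted p = 3.67e-08). Igf2r and the antisense RNA Airn, which overlap on opposite strands, were 1.08-fold (adjusted p = 1.32e-05) and 1.11-fold higher (adjusted p = 0.000458). Gnas was 1.12-fold higher (adjusted p = 6.12e-07), Nespas 1.23-fold (adjusted p = 0.00261) and Cd81 1.12-fold (adjusted p = 0.00339). The call of Gnas was lost without the band in the model (adjusted p = 0.0876), and with the endocrine cell scores its sign turned (log2 -0.05, adjusted p = 0.226), as did that of Cd81 (log2 -0.10, adjusted p = 0.19). Nespas did not pass with the non-endocrine (log2 0.10, adjusted p = 0.442) or the endocrine scores (log2 0.13, adjusted p = 0.429). Plagl1 did not pass with the non-endocrine scores (log2 0.15, adjusted p = 0.06), nor Airn with the endocrine ones (log2 0.07, adjusted p = 0.253). Nnat was 1.29-fold higher (log2 0.37 ± 0.12 SE, adjusted p = 0.00612), and in no single band did it pass (0 of 4 bands). Its log2 difference was 0.20 with the non-endocrine (adjusted p = 0.189) and 0.09 with the endocrine scores (adjusted p = 0.661). Rasgrf1 (log2 0.14), Zdbf2 (0.10), Copg2 (0.09) and Mcts2 (0.07), a retrogene in an intron of H13, made up the rest of the genes higher in females. Of these Zdbf2 and Mcts2 did not pass with either set of scores (adjusted p from 0.338 to 0.689), nor Rasgrf1 with the non-endocrine ones (adjusted p = 0.125). Without band 4 the imprinted genes higher in females were 16, and Zdbf2, Rtl1, Mcts2, Nnat, Usp29 and Rasgrf1 did not pass (adjusted p from 0.0544 to 0.129).

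Lower in females were Snrpn, H13, Peg13 and Trappc9. Snrpn, which encodes the spliceosomal protein SmN, ran from 29.7 to 62.3 CPM in females (median 40.7 CPM) and from 33.8 to 94.2 CPM in males (median 45.5 CPM), and it fell by 0.18 on the log2 scale in females (SE 0.02, adjusted p = 9.6e-15). H13 ran from 133.2 to 276.9 CPM in females (median 182.8 CPM) and from 153.1 to 409.1 CPM in males (median 198.9 CPM), and it fell by 0.16 (SE 0.02, adjusted p = 1.52e-15). Both passed in all 4 bands alone. Peg13, a paternally expressed non-coding RNA within an intron of Trappc9, fell by 0.10 (adjusted p = 0.000219), and Trappc9, a subunit gene of the TRAPP vesicle tethering complex, fell by 0.07 (adjusted p = 0.000862). With the endocrine cell scores in the model these last values were -0.02 for Peg13 (adjusted p = 0.732) and -0.01 for Trappc9 (adjusted p = 0.812). In that fit Snrpn and H13 passed at smaller sizes, log2 -0.09 (adjusted p = 0.00477) and -0.08 (adjusted p = 0.00145). Trappc9 also did not pass with the non-endocrine scores (adjusted p = 0.0998) or without the band in the model (adjusted p = 0.079). Of the 16 beta cell markers 9 were lower and 1 higher in females, and 6 did not pass. Their summed level had a median of 137040 CPM in females (85295 to 243870 CPM), against 164820 CPM in males (85395 to 348180 CPM). The ranges overlapped, and the band was not removed from these sums.

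Ube3a, Ndn, Inpp5f, Igf2, Blcap, Kcnq1ot1, Cdkn1c, Slc22a18, Peg3 and Grb10 did not pass the test for sex in the main comparison. For Ube3a the log2 difference was -0.003 ± 0.02 (SE), and for Inpp5f -0.01 ± 0.03 (SE). For Igf2 the error was larger (log2 0.03 ± 0.08 SE). No imprinted gene passed the test of a sex difference that varies with the band (0 of 36), where 1.13% of all tested genes did.

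**Figure D2:**
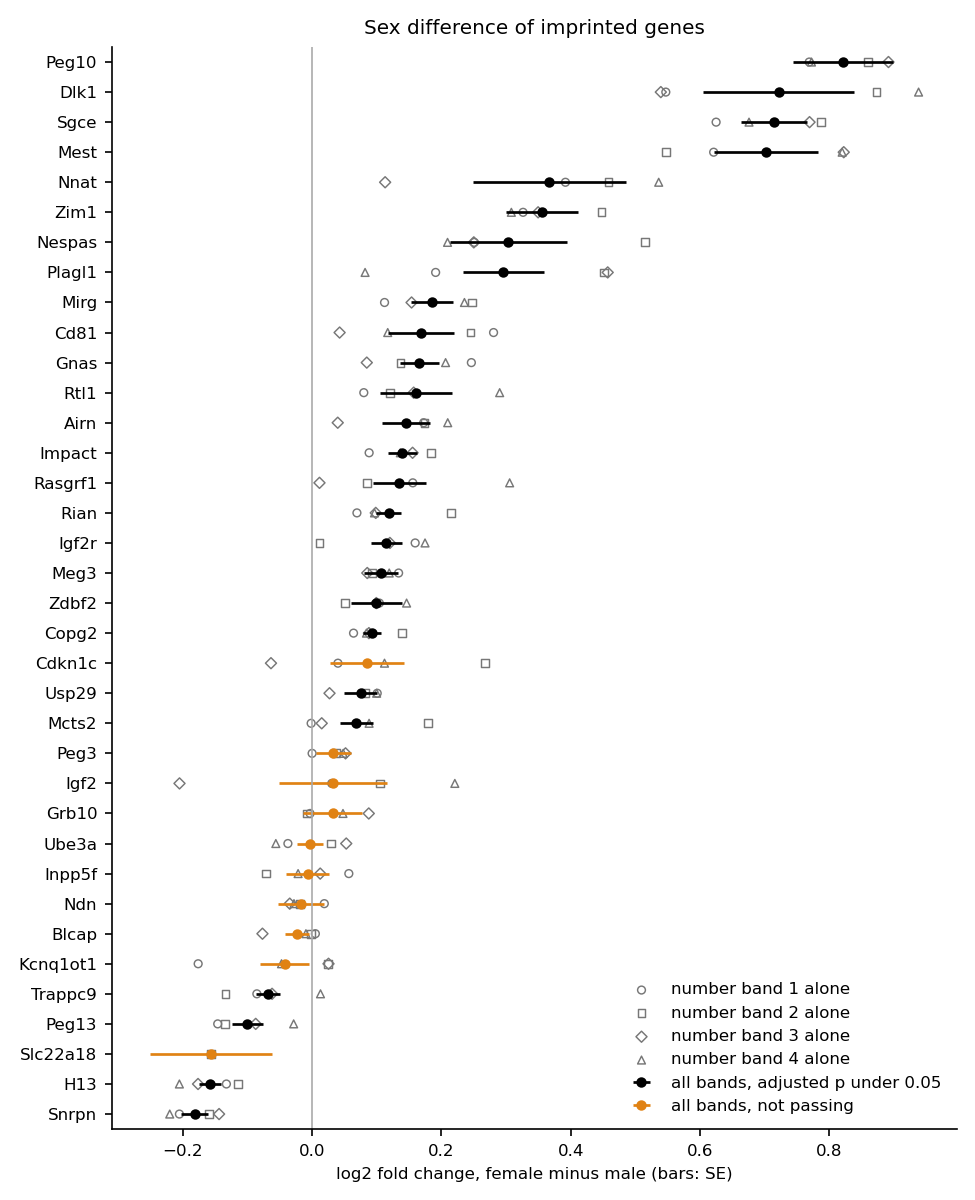
Log2 difference between females and males for the 36 tested imprinted genes, sorted by size. Filled points with bars are the fit over all bands with its SE (black past the threshold, orange not), and open symbols are each number band alone (Slc22a18 was tested in 1 band only); Peg10, Dlk1, Sgce and Mest lie to the right of all others and Snrpn and H13 to the left.

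Spread between mice was compared between the sexes with limma on absolute deviations from the median of each sex and band. Of the 33 imprinted genes with a mean of at least 1 CPM, 5 were more widely spread in males and 0 in females, where 5.11% of the genes tested were wider in males and 0.104% in females. These were Dlk1 (SD of log2 CPM 0.98 in females and 1.41 in males, adjusted p = 0.00422), Mest (0.69 in females and 0.99 in males, adjusted p = 0.00935), Snrpn (0.15 in females and 0.24 in males, adjusted p = 0.0161), Sgce (0.42 in females and 0.57 in males, adjusted p = 0.0177) and Peg10 (0.67 in females and 0.86 in males, adjusted p = 0.0251). Of the proliferation genes with a mean of at least 1 CPM 8 of 12 were also wider in males. So were 3 of the 9 delta and PP cell markers, 2 of the 9 alpha cell markers and 2 of the 10 duct markers. Of the beta cell, acinar, endothelial, and stellate, pericyte and fibroblast markers 1 each was wider in males. Fewer of all genes passed this test without band 4, and the calls of the 5 imprinted genes there are not reported here.

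Co-variation between mice was measured as the correlation of log2 CPM after the mean of each sex and band was removed, so that mean differences between sexes and bands do not enter. Each of the 630 pairs was tested by a permutation test within sex and band with 100000 resamples (two-sided, smallest possible p 1e-05), adjusted over the pairs. Of all relations between an imprinted gene and any other tested gene 3.39% had r above 0.3 and 2.67% had r below -0.3. In limma fits adjusted over all genes, a different test, 19.9% of them were positive and 19.4% negative past the threshold. Of the 33 pairs within clusters 16 had r above 0.3, and of the 597 pairs between clusters 40 did. An r below -0.3 was found for 20 pairs, all between clusters. Past the threshold 25 pairs within clusters were positive and 5 negative. The median r was 0.28 within and 0.09 between clusters. Clusters were uneven: of the 16 pairs within clusters with r above 0.3, 9 came from the Dlk1 to Mirg cluster and 3 from the Peg3 cluster. The median r was 0.47 over the 10 pairs of the Dlk1 to Mirg cluster and 0.12 over the 10 of the distal chromosome 7 cluster. It was -0.20 over the 3 pairs of the Prader-Willi/Angelman region. Among pairs within a cluster, those listed for the same parental copy had a median r of 0.31 (11 pairs). Those listed for opposite copies had 0.26 (21 pairs). Of these 21 pairs 14 were positive and 4 negative past the threshold. Between clusters the median r was 0.15 for pairs listed as paternally expressed and -0.01 for 85 pairs listed as maternally expressed. The copy was taken from the list and not measured, and many of these pairs hold genes whose imprinting is limited to some tissues, stages or transcripts.

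RefSeq promoter windows (250 bases before to 50 after a start, GRCm38.p6) are printed for 1 gene each of 4 clusters in which all tested pairs were positively correlated past the threshold. The hexamer TGCCGC, the core motif bound by the imprint-protecting protein ZFP57, and its reverse complement GCGGCA are in capitals; the motif and the windows were chosen after the correlations were seen. The windows of Peg3 and Usp29 overlap, since these genes lie head to head, and Sgce and Peg10 are also head to head, with 98 bases between them. The first line is chr7:6730370-6730669 (minus strand), the next chr12:109540746-109541045 (plus strand), the next chr2:157559828-157560127 (plus strand), and the last chr6:30737800-30738099 (plus strand).
Peg3: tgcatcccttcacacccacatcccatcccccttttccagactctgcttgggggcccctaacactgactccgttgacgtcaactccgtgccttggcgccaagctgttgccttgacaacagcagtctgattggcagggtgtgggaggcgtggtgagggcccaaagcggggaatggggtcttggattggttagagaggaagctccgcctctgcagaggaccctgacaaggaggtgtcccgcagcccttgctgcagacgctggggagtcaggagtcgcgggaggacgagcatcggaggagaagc
Meg3: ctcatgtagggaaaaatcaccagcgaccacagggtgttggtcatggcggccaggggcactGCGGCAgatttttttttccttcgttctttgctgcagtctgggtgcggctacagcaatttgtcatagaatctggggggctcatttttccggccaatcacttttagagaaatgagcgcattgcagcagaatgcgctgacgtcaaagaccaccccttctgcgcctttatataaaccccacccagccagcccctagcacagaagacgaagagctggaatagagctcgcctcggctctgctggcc
Nnat: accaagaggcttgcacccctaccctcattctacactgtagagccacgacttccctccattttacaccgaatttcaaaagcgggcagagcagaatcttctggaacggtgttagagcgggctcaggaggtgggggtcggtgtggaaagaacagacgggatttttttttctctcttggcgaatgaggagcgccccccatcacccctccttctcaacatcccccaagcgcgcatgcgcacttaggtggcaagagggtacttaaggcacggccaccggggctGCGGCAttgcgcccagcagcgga
Mest: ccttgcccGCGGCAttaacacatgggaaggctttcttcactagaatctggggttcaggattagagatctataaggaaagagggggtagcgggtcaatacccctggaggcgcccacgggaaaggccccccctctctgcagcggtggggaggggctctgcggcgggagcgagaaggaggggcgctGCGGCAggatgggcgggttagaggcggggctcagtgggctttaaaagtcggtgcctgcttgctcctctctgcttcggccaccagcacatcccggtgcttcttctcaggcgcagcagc
In the Peg3 window the hexamer is not found on either strand. The printed windows of Meg3 and Nnat hold 1 match each and that of Mest holds 2, while a further window each of Meg3 and Mest, not printed, holds 0. The hexamer was found in 13 of the 45 windows of 31 listed genes (28.9%), against 11.6% of 32851 windows of all genes. These 45 windows count 1 window under both Snrpn and Snurf, and 2 Mest windows that start 3 bases apart. The windows of the listed genes also had more CpG dinucleotides, with a median of 15 per window against 7 over all genes, and a match is a description and not a binding site.

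Sgce and Peg10 were the most strongly coupled pair (r = 0.80, rho = 0.80, adjusted p = 3.91e-05, all libraries), with r between 0.68 and 0.87 in the 8 groups of sex and band. Among all 18561 other genes Sgce was the closest to Peg10, ranking at 1, and Peg10 ranked at 3 for Sgce. With the scores of 9 cell types removed r was 0.57. In the Peg3 cluster, Peg3 and Usp29 had r = 0.53 (rho = 0.49), Zim1 and Usp29 r = 0.40 and Zim1 and Peg3 r = 0.39. Zim1 is listed for the maternal copy, with limited imprinting, and the others for the paternal copy. Peg3 was the gene most correlated with Usp29 (rank 1). All 12 strongest pairs within clusters kept their sign and their call under each alternative run for them.

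In the Dlk1 to Mirg cluster all 10 pairs were positive and passed the threshold. The maternal RNAs Rian and Mirg had r = 0.65 (rho = 0.66) and each ranked first for the other among all genes (rank 1). Meg3 and Mirg had r = 0.63 (rho = 0.67), and Meg3 and Rian r = 0.44. The paternal Rtl1, which lies on the opposite strand between Meg3 and Rian, correlated with Mirg at r = 0.61 and with Meg3 at r = 0.58. Counts of Rtl1 were whole numbers in 56.6% of the libraries. Whether the counting used strand is not known here, so reads from the other strand at Rtl1 may be counted for it. Dlk1 correlated with Mirg at r = 0.49 and with Meg3 at r = 0.42, and with the cell type scores removed r was 0.32 for Dlk1 with Mirg.

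Other clusters were loosely coupled or showed both signs. Nnat lies within an intron of Blcap on the opposite strand, and their r was 0.48 (rho = 0.47). Igf2r and Airn, a non-coding RNA known to repress Igf2r in cis from the paternal copy, were positively correlated (r = 0.36, rho = 0.32). Mest and Copg2 had r = 0.26, Trappc9 and Peg13 r = 0.26, and Nespas and Gnas r = 0.21. These pairs overlap on the genome, whether the counting used strand is not known here, and for such pairs the reads of one gene may be counted in part for the other. In the Prader-Willi/Angelman region Ube3a, listed for the maternal copy with limited imprinting, was inversely related to Snrpn (r = -0.23, adjusted p = 7e-05, and rho = -0.10, adjusted p = 0.093). It was also inverse to Ndn (r = -0.20), and Snrpn and Ndn, both listed for the paternal copy, were weakly positive (r = 0.13). The rank correlation of Ube3a with Snrpn did not pass. In the distal chromosome 7 cluster 5 of 10 pairs were positive and 2 negative past the threshold, and the largest was Cd81 with Cdkn1c (r = 0.31). Igf2 and Kcnq1ot1 had r = 0.16. H13 and Mcts2 went in opposite directions (r = -0.15, adjusted p = 0.00903), with rho = -0.08 (adjusted p = 0.172).

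Between clusters the largest correlations joined Mest to Sgce (r = 0.58, rho = 0.53) and to Peg10 (r = 0.52, rho = 0.45), genes that lie on the same chromosome but 26050 and 25980 kb apart. Dlk1 and Mest had r = 0.47, Nespas and Mest r = 0.42, Rian and Impact r = 0.44, and Impact and Ube3a r = 0.42. Negative relations centred on H13, with Peg10 (r = -0.46), Sgce (r = -0.43) and Nnat (r = -0.41), and on Snrpn, with Mirg (r = -0.41, rho = -0.29). With the cell type scores removed, the pairs between clusters with r above 0.3 numbered 8 in place of 40, and r was 0.29 for Sgce with Mest, 0.36 for Peg10 with Mest and 0.17 for Dlk1 with Mest. Within clusters 12 pairs in place of 16 had r above 0.3, with a median r of 0.22.

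**Figure D3:**
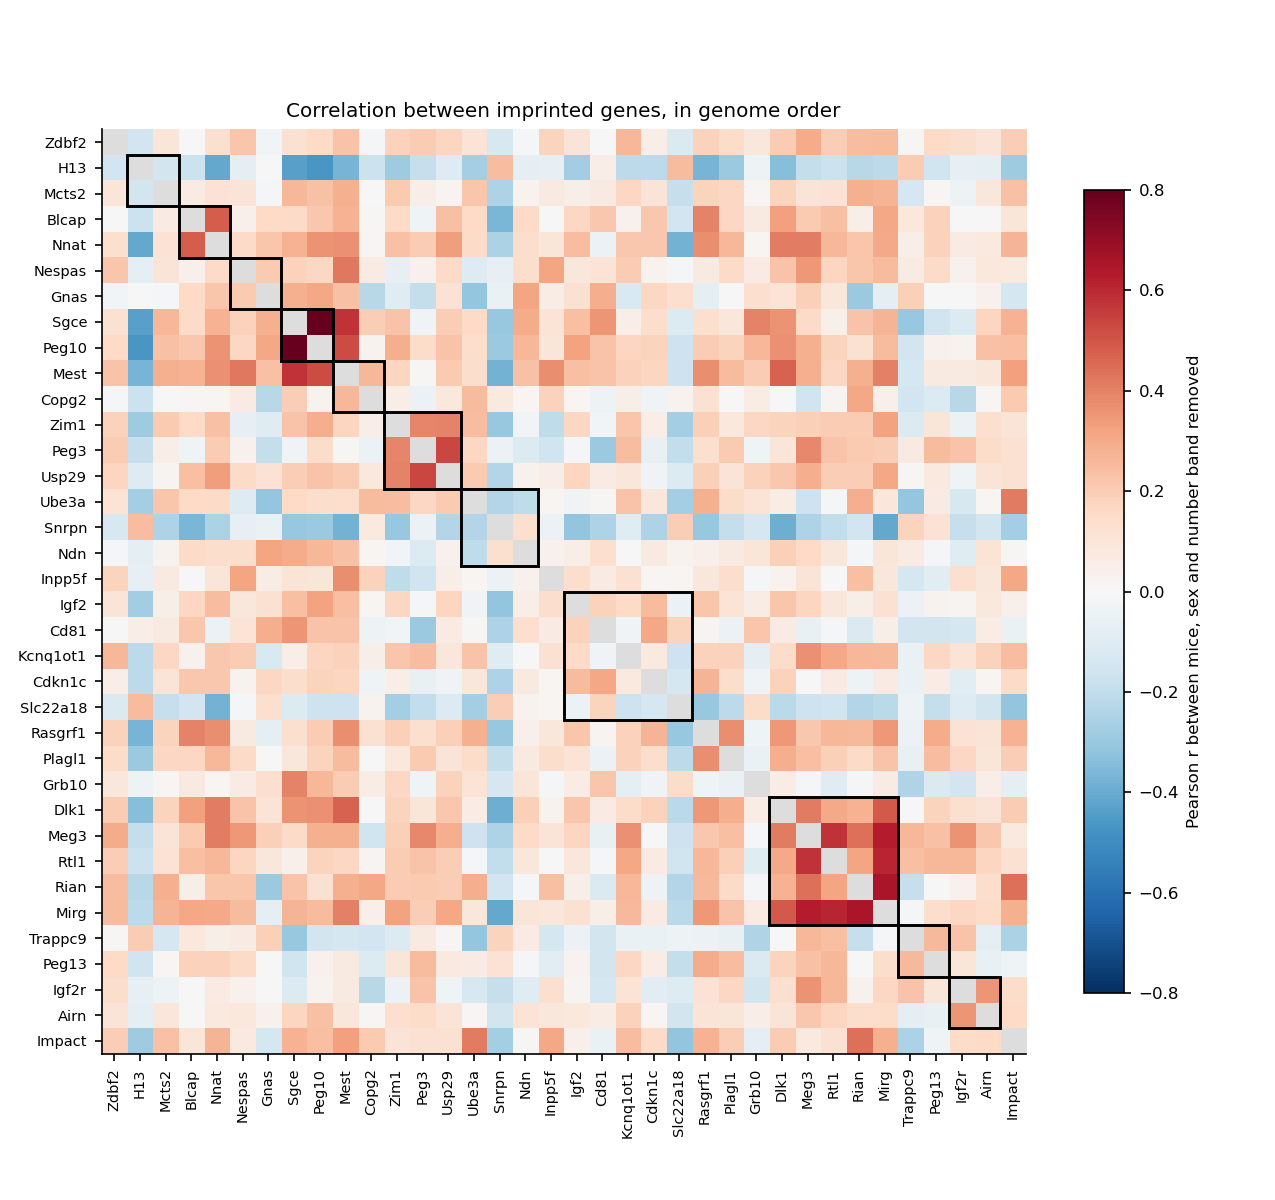
Pearson r between the 36 tested imprinted genes across all mice after removal of sex and number band, in genome order on both axes, with black boxes around clusters (red positive, blue negative, grey diagonal). The Dlk1 to Mirg and Peg3 boxes are red throughout, Sgce with Peg10 is the darkest cell (0.80), and the rows of H13 and Snrpn are mostly blue.

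**Figure D4:**
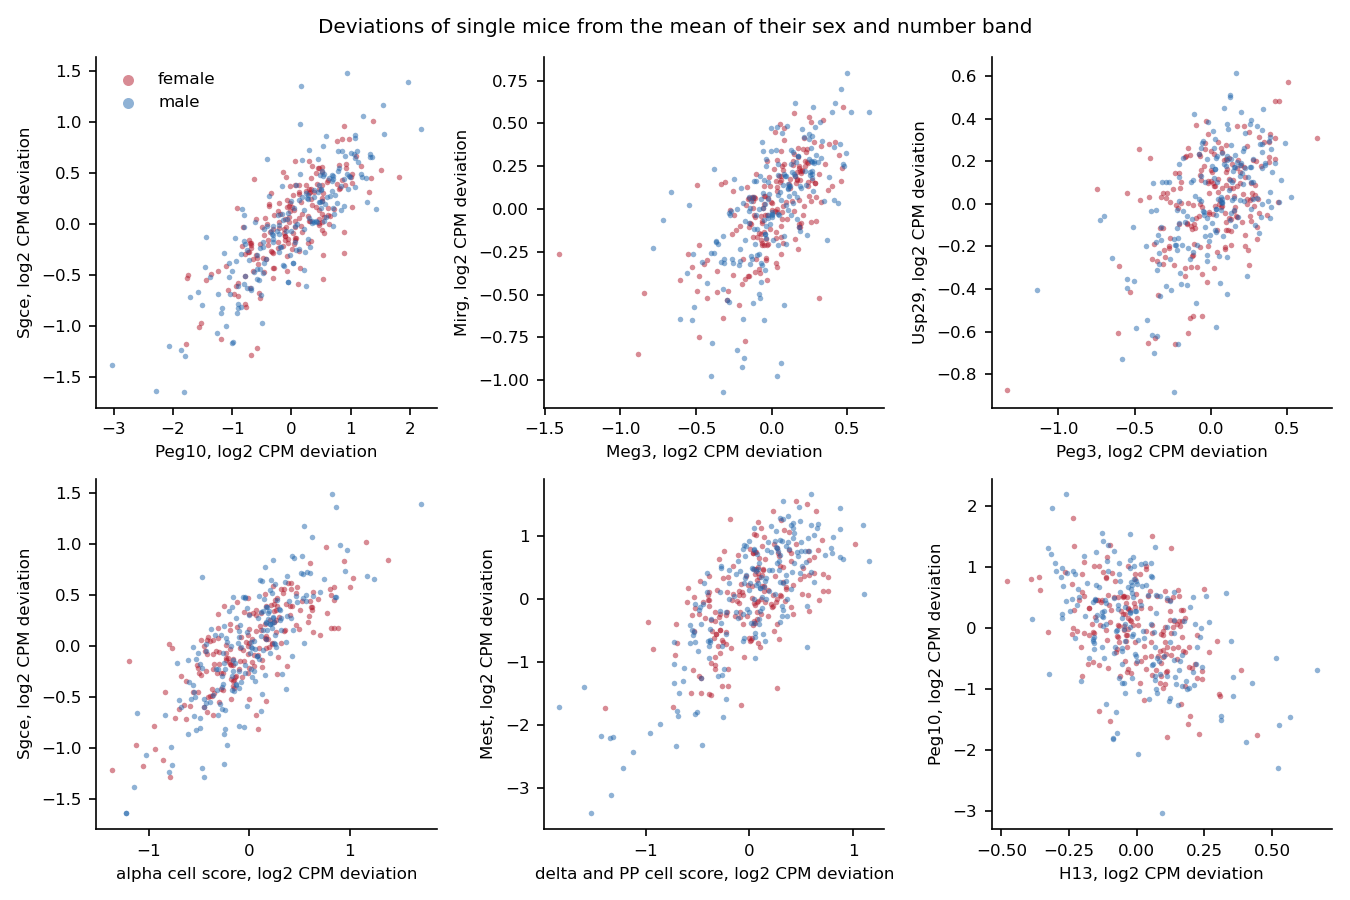
Deviations of single mice (red female, blue male) from the mean of their sex and number band, in log2 CPM, for 6 relations. Peg10 with Sgce, the alpha cell score with Sgce and the delta and PP cell score with Mest form narrow clouds (r = 0.80, 0.77 and 0.72), Meg3 with Mirg and Peg3 with Usp29 wider ones, and H13 with Peg10 slopes downward (r = -0.46).

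Relations to cell types were described with scores, the mean log2 CPM of marker genes of the cell types an islet preparation can hold. Of the 36 imprinted genes 23 were positively and 2 negatively correlated with the delta and PP cell score in limma fits over all genes (adjusted p under 0.05), where 21.7% and 20.9% of genes were. For the alpha cell score 16 were positive and 4 negative, against 17.2% and 19.6%. For the endothelial score 3 were positive and 22 negative, against 24.9% and 26.6%. For the proliferation score 4 were positive and 23 negative, against 25.3% and 28.5%. For the stellate, pericyte and fibroblast score 5 were positive and 19 negative, against 21.6% and 25.6%. For the beta cell score 10 were positive and 6 negative, against 24.7% and 20.7%. For the acinar score 1 was positive and 3 negative, against 5.6% and 6.55%, and for the lymphocyte score 15 were positive and 4 negative, against 12.4% and 11.1%. For the duct score 11 were positive and 2 negative, against 18.4% and 19.6%. For the Schwann cell score 8 were positive and 2 negative, against 11.7% and 11%, and for the macrophage score 1 was positive and 6 negative, against 11.3% and 13.6%. No imprinted gene passed for the adipocyte score in either direction (0 of 36), against 0.07% and 0.0216%, in limma fits whose adjustment runs over all genes.

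The closest relation was that of Sgce with the alpha cell score (r = 0.77, rho = 0.76, permutation test, adjusted p = 4.91e-05 over 432 relations, all libraries), followed by Mest with the delta and PP cell score (r = 0.72, rho = 0.67), Peg10 with the alpha cell score (r = 0.67), Sgce with the delta and PP cell score (r = 0.65) and Gnas with the alpha cell score (r = 0.51). Peg10 followed for the delta and PP cell score (r = 0.50). Without the 2 libraries farthest from the median the first 2 of these values were 0.76 and 0.70. Sgce correlated with the glucagon gene Gcg at r = 0.82 and with the alpha cell transcription factor gene Irx2 at r = 0.82. For Peg10 the highest relations among genes that are not imprinted were Irx2 (r = 0.73), Mctp2 (r = 0.72) and Samd5 (r = 0.72). Mest was closest to Rbp4 (r = 0.72) and to the ghrelin receptor gene Ghsr (r = 0.71), both listed as delta cell markers, and to the monocarboxylate transporter gene Slc16a7 (r = 0.69). Of all other genes 50% passed the threshold with Sgce and 51.4% with Mest, and their relations were read out because of their size, after the values were seen.

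The beta cell score was highest with Trappc9 (r = 0.46), Peg13 (r = 0.38) and Nnat (r = 0.32). Proliferation was inversely related to Mest (r = -0.54) and Sgce (r = -0.43) and positively to Snrpn (r = 0.45, rho = 0.31). Endothelial markers were inverse to Mirg (r = -0.41), Dlk1 (r = -0.41) and Mest (r = -0.41), and stellate, pericyte and fibroblast markers to Rasgrf1 (r = -0.44), Mirg (r = -0.39) and Rian (r = -0.36). Macrophage markers were weakly inverse with Zim1 (r = -0.27), Ube3a (r = -0.23) and Usp29 (r = -0.23). Duct markers were related to Mest (r = 0.30), Sgce (r = 0.27) and Dlk1 (r = 0.25), and Schwann cell markers to Peg10 (r = 0.27), Inpp5f (r = 0.27) and Gnas (r = 0.25). The lymphocyte score rested on 2 tested genes and was highest with Rian (r = 0.31), Nnat (r = 0.27) and Impact (r = 0.26). Relations to acinar markers were small, with Trappc9 (r = -0.21), Ube3a (r = -0.15) and Sgce (r = 0.15). Those to adipocyte markers, a score of 2 tested genes, were also small. They were with Trappc9 (r = -0.12), Inpp5f (r = 0.11, permutation test, adjusted p = 0.0827) and Gnas (r = -0.07, permutation test, adjusted p = 0.256). In the limma fits over all genes these adipocyte relations did not pass (adjusted p = 0.36, 0.449 and 0.635).

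**Figure D5:**
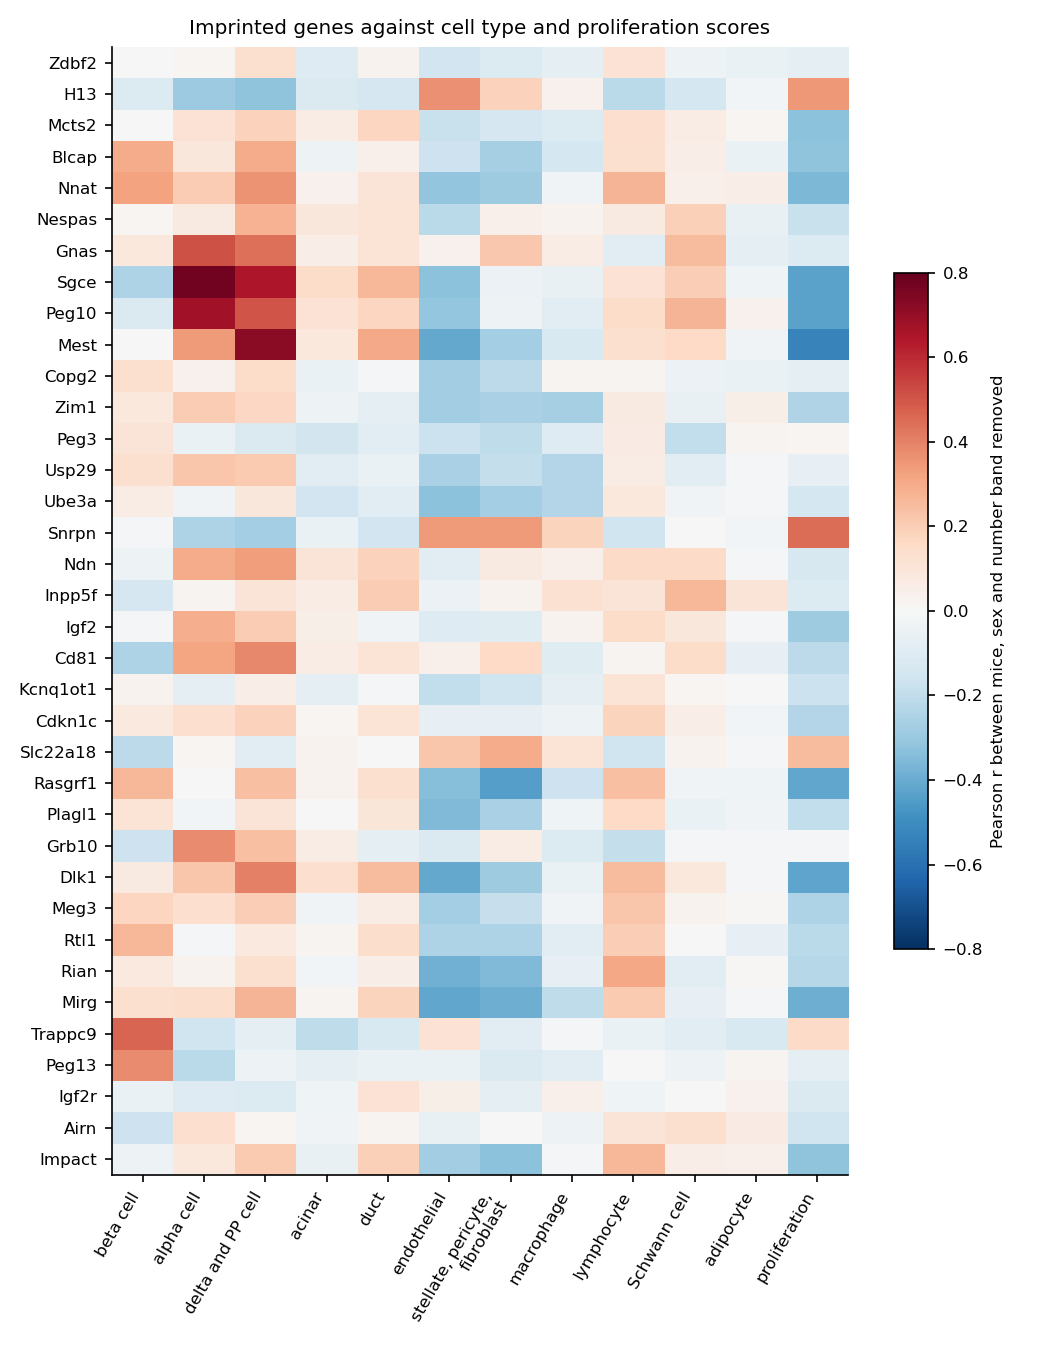
Pearson r of the 36 tested imprinted genes (rows, genome order) with 11 cell type scores and a proliferation score (columns) across all mice after removal of sex and number band. Sgce, Peg10, Mest and Gnas are red in the alpha and the delta and PP columns, and most rows are blue in the endothelial and proliferation columns, with H13 and Snrpn red there.

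Genes outside the imprinted set that moved with its most abundant members were read from limma fits over all 18561 other genes, in which a median of 41.4% of genes passed the threshold per imprinted gene (from 11.4% for Ndn to 52.9% for Meg3). This share is given in parentheses after each gene. The named relations were tested again by permutation, and all had the smallest p that 100000 resamples can give (adjusted p = 1e-05). Meg3 was highest with Celsr3 (r = 0.70), a cadherin gene, Pkd1 (r = 0.65), the polycystin-1 gene, and Kmt2b (r = 0.64), a histone methyltransferase gene, and lowest with Lamtor5 (r = -0.63), Atp5f1 (r = -0.61) and Sep15 (r = -0.61). H13 (49.4%) was closest to Surf4 (r = 0.80), which encodes a cargo receptor, Clptm1l (r = 0.79) and P4hb (r = 0.79), the protein disulfide isomerase gene, and it was inverse to Usp11 (r = -0.55), Sec61a2 (r = -0.52) and Tmpo (r = -0.52). Gnas (44.2%) was highest with the ribosomal protein gene Rplp2 (r = 0.73), with Pcsk1n (r = 0.67), which encodes the granule protein proSAAS, and with the pseudogene Tpt1-ps3 (r = 0.66), and lowest with Cul1 (r = -0.54), Pcmtd1 (r = -0.53) and Zfp617 (r = -0.51).

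Ube3a (48.8%) was highest with Ptpn4 (r = 0.77) and Lin7c (r = 0.74) and lowest with Npdc1 (r = -0.56), Gpaa1 (r = -0.53) and Plod3 (r = -0.53). Igf2r (44.1%) was highest with Mast4 (r = 0.66), Ptpn23 (r = 0.63) and the laminin gene Lamc1 (r = 0.63) and lowest with Poglut1 (r = -0.56), Commd3 (r = -0.54) and Mrps23 (r = -0.53). Peg3 (42.3%) was highest with Baz2b, Ttll4 and Rictor (r = 0.56 each), of which Rictor encodes a subunit of mTOR complex 2, and lowest with Mrpl27 (r = -0.50), Med28 (r = -0.50) and Psmb4 (r = -0.49). Copg2 (44.4%) was highest with Pex3 (r = 0.57), Tsg101 (r = 0.55) and Lrrc40 (r = 0.55) and lowest with Fbrs (r = -0.54) and Atg2a (r = -0.53). Blcap (40.5%) was highest with Maz (r = 0.55), Arf3 (r = 0.53) and Pfn1 (r = 0.50) and lowest with Nucb2 (r = -0.50), Erlec1 (r = -0.49) and Ccpg1 (r = -0.47). Peg13 (38.7%) was highest with Brsk2, Rreb1 and Zmiz1 (r = 0.55 each) and lowest with Ube2l6 (r = -0.53), Sppl2a (r = -0.52) and Nmi (r = -0.52). Cd81 (35.8%) was highest with the transcription factor genes Fev (r = 0.50) and Prdm16 (r = 0.49) and with Tapbp (r = 0.45), and lowest with Lrp2bp (r = -0.52), Cldn1 (r = -0.43) and Tbc1d9 (r = -0.43). Peg10 (47.9%) was lowest with Bckdk (r = -0.57), Spcs1 (r = -0.56) and Ddrgk1 (r = -0.55).

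Some relations of other imprinted genes were picked after their values were seen. Inpp5f (40%) and Crem, which encodes a cAMP-responsive transcription factor, had the largest r of all, 0.84 (rho = 0.85), between 0.79 and 0.89 in the 8 groups of sex and band, and Inpp5f also followed Slc23a2 (r = 0.75) and the ornithine decarboxylase gene Odc1 (r = 0.74). Grb10 (19.6%) followed Psat1 (r = 0.45), a serine synthesis gene, the cystine transporter gene Slc7a11 (r = 0.44) and the glycyl-tRNA synthetase gene Gars (r = 0.43). Snrpn (52.3%) followed Erlec1 (r = 0.67), Ccpg1 (r = 0.67) and Nucb2 (r = 0.64), with lower rank correlations of 0.51, 0.54 and 0.42. Rasgrf1 (44.8%) was inverse to its chromosomal neighbour Ctsh, the cathepsin H gene 0.14 Mb away (r = -0.52, rho = -0.52). Igf2 (34.2%) followed its antisense transcript Igf2os (r = 0.74), which overlaps it, and reads of one may be counted in part for the other.

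Genes outside the set but of related function were taken from 3 lists, whose counts stand against 21.5% higher and 26.9% lower over all tested genes. Of 37 other imprinted genes tested 10 were higher in females and 9 lower. Sfmbt2, a Polycomb gene, averaged 0.508 ± 0.354 CPM in females, against 0.298 ± 0.242 CPM in males (log2 0.76, adjusted p = 4.24e-11), and Slc22a2, a cation transporter gene, 0.229 ± 0.174 CPM in females, against 0.425 ± 0.45 CPM in males (log2 -0.87, adjusted p = 8.71e-11), both at low levels. Tgfb1i1 was higher in females (log2 0.28, adjusted p = 5.9e-10), as was Zfp264 (log2 1.16, adjusted p = 2.14e-08), at means of 1.27 CPM in females, against 0.577 CPM in males. Of 20 genes of imprint maintenance 7 were higher and 6 lower in females. The demethylase genes Kdm1b (log2 -0.25) and Tet3 (-0.17) and the cofactor gene of DNA methyltransferase 1, Uhrf1 (-0.53), were lower, and the histone methyltransferase gene Setdb1 (0.10) was higher. Of 16 IGF signalling genes 4 were higher and 7 lower. The binding protein genes Igfbp4 (log2 0.91, adjusted p = 1.13e-23) and Igfbp3 (log2 -0.34, adjusted p = 5.54e-08) went in opposite directions. The RNA-binding protein gene Igf2bp2 was higher in females (log2 0.52, adjusted p = 2.2e-10), and the kinase gene Akt2 lower (log2 -0.08, adjusted p = 4.54e-05).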

How the data were processed

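The authors deposited a table of estimated counts per gene (67.7% of the values are whole numbers) and a table of log2-scale values from a variance-stabilising transformation, for islet libraries. Per the submitters' processing notes the build was GRCm38 and DESeq2 was used; aligner, counting tool and use of strand: not given in the sources used here. Sex was taken from the letter in the title and the number band from the mouse number. The labels name a separate mouse for each library.

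Expected counts were rounded to whole numbers, filtered by sex and band (18562 genes left) and scaled by TMM, and sex was tested with edgeR's quasi-likelihood test (edgeR 4.0.16, R 4.3.3) with the band as a covariate and Benjamini-Hochberg adjustment over all tested genes (threshold 0.05). Log2 CPM had a prior count of 2. Levels per kilobase used merged exons of GENCODE M21, which holds 22076 of the 22180 gene IDs, and 32 members at the same position. Correlations were taken on deviations from the mean of the 8 groups of sex and band, with Python 3.11.15, NumPy 2.4.6 and SciPy 1.17.1, and limma 3.58.1 over all genes. The limit of 3 counts covers counting error only, whereas SEs and SDs cover the spread between mice. Scripts were tested on simulated data. No 2 libraries were identical.

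The members and all lists were chosen with earlier results of these data known. Genes named in the text were the members past the threshold for sex with a mean of at least 1 CPM, the highest and lowest member of each cluster, the 12 pairs within and 10 between clusters with the largest r in size, the 3 members most related to each cell type list, the 3 highest and 3 lowest other genes for the most abundant member of each cluster, and up to 4 genes of each further list. A few genes that this rule names are not reported here. Names outside this rule are said to be chosen after the values were seen. Alternatives were another scaling, no filter, other tests (DESeq2 1.42.0, limma-voom), the deposited log2-scale values, no band, cell type scores as covariates, single bands, and leaving out band 4 or the 2 libraries whose Xist level went against their label.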

Additional observations from a re-analysis of the deposited data

How the results depend on the processing

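No paired analysis was possible because the females and males share no mouse number. The 8990 genes called for sex became 5521 with the non-endocrine cell type scores as covariates, 2873, 4687, 2632 and 4247 in bands 1 to 4 alone, and 4477 with the alpha, delta and PP, and beta cell scores (chosen after the data were seen). The 22 imprinted genes higher in females became 13, 7, 12, 7, 14 and 12 in the same order. The 4 lower ones became 2 each in bands 1, 3 and 4 alone. Single bands hold fewer libraries; the cause of the other moves was not tested. Without band 4 the genes called for a sex difference that varies with the band were 10 in place of 210, those for the band 6170 in place of 16005. The share of genes called for spread by sex was 1.24% without band 4 in place of 5.22%. With the scores of 9 cell types removed, endocrine ones included, 41.1% of the pairs passed in place of 63.3%.

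Among log2 differences of single genes the sign turned in these cases. In band 1 alone Grb10 was -0.00298, Mcts2 -0.0013, Blcap 0.0052, Ndn 0.019 and Inpp5f 0.057. In band 2 alone Grb10 was -0.0078, Ube3a 0.029 and Kcnq1ot1 0.025. In band 3 alone Ube3a was 0.053, Inpp5f 0.013, Igf2 -0.20, Kcnq1ot1 0.026 and Cdkn1c -0.063. In band 4 alone Trappc9 was 0.013. Without band 4 Ube3a was 0.017, Inpp5f 0.00013 and Igf2 -0.027. With the endocrine cell scores Grb10 was -0.21, Gnas -0.053, Igf2 -0.28, Cd81 -0.10 and Cdkn1c -0.013. With the non-endocrine scores Igf2 was -0.0042 and Slc22a18 0.015. Ube3a was 0.0013 without the band in the model, 0.00058 with DESeq2's size factors, 0.00065 with DESeq2 and 0.0016 with the deposited log2-scale values, and Inpp5f was 0.0043 with limma-voom and 0.0076 with the deposited values. The cause was not tested. Of the values of called genes 82 lost the call and 4 turned, and all 110 values of the 22 named pairs kept both. By count, depth limits most the tested genes with medians under 1 CPM, Slc22a18 (0.224 CPM), Cdkn1c (0.478 CPM) and Nespas (0.512 CPM).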
